A study of Mus musculus and Homo sapiens with 9 samples.

Results

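Interferon-stimulated genes are the genes that cells switch on when interferon is sensed, and 49 human symbols of this kind were chosen by name as the members described here. IRF2BP2 was first described as a partner of IRF2, one of the interferon regulatory factors, and the study asked what T-ALL cells and normal T cells lose without it. Among the human genes 47 of the 49 symbols had a row among 56105 annotated rows, and 44 of them passed the filter on low counts among 15819 genes tested. Among the mouse genes 38 symbols in mouse case had a row among 42462 annotated rows, and 37 of them were among 15350 genes tested. DDX58 is the older symbol of RIGI, and EIF2AK2X matched no gene in either annotation. The mouse genes Gbp5, Ifi6, Ifit5, Oas1, Oasl, Herc5, Samd9, Gbp1 and Trim22 had no row under those symbols, and Rigi was listed as Ddx58. IFI44L, MX1 and GBP4 in the human table had at most 9 counts in any library and were not tested, and mouse Ifi44l had 0 counts in all 5 libraries.

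RNA-seq was done on 4 groups. J.gamma1 is a line derived from Jurkat, which came from a T-ALL. There were 2 libraries of J.gamma1 with a lentiviral control hairpin (sh-NC) and 2 of J.gamma1 in which the hairpin targeted IRF2BP2 (sh-IRF2BP2), and puromycin was used to select the transduced cells. The mouse libraries came from CD3+ T cells sorted from spleen with magnetic beads, 2 from Irf2bp2 knockout mice and 3 from controls. In the knockout, Vav-iCre, a Cre recombinase active throughout the hematopoietic lineage, removed the floxed part of Irf2bp2, so that the gene was lost from all blood cells and not from T cells alone. The labels call the controls wild type, the paper describes them as Vav-iCre-/-;Irf2bp2fl/fl, and no age is given in the labels. The paper does state an age in weeks at sacrifice, where it describes flow cytometry of these mice.

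Type I and type III interferons signal through a complex that holds STAT2 and IRF9 and binds the interferon-stimulated response element (ISRE). Type II interferon acts mainly through another element, the gamma-activated site (GAS). The products of the responding genes sense viral RNA, degrade it, block its translation, hold virions at membranes or feed back on the pathway. T cells express many of these genes at a low level without added interferon.

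Total counts were between 26648204 and 31120236 in the J.gamma1 libraries and between 16668577 and 37177523 in the mouse libraries, with control replicate 3 the shallowest. Levels are given as CPM, the counts relative to the scaled size of the library, and folds are log2 ratios fitted by edgeR to the counts. The targeted gene followed the labels. IRF2BP2 measured 204 and 199 CPM with sh-NC and 79.0 and 93.8 CPM with sh-IRF2BP2 (log2 fold change -1.22; adjusted p = 0.0023, where p-values are from the quasi-likelihood test of edgeR and adjusted by Benjamini-Hochberg over all genes tested). Mouse Irf2bp2 had 4145, 4594 and 1915 counts in the controls and 0 counts in both knockout libraries, which is at least 1469-fold lower with 3 counts per library as the floor. All 15 T cell markers listed for J.gamma1 had counts, with a sum of 1831 to 2266 CPM, whereas the erythroid sum was at most 1.43 CPM and the neutrophil sum at most 0.240 CPM.

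In J.gamma1 cells with the IRF2BP2 hairpin, the levels of GBP1, GBP3, IFIT2, XAF1, LGALS3BP and DTX3L were higher and those of OAS1, IFI6 and HERC5 lower. A call required that the adjusted p lay under 0.05 and that the log2 ratio was 0.5 or more in size. By this rule 6 of the 44 members tested were called higher, which is 13.6%, against 5.46% of all genes tested. In the other direction 3 members were called lower, which is 6.82%, against 5.01% of all genes tested. The 2 groups of libraries did not overlap for 19 members that were higher (43.2%, against 29.6% of all genes tested) and for 8 that were lower (18.2%, against 28.7%). The median log2 fold change was 0.22 over the members tested and 0.0067 over all genes tested, and 29 of the 44 members had a positive value. The share of members called lower was thus near that of all genes tested, and the share lower without overlap was under it. The families of related genes differed in direction.

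**Figure D1:**
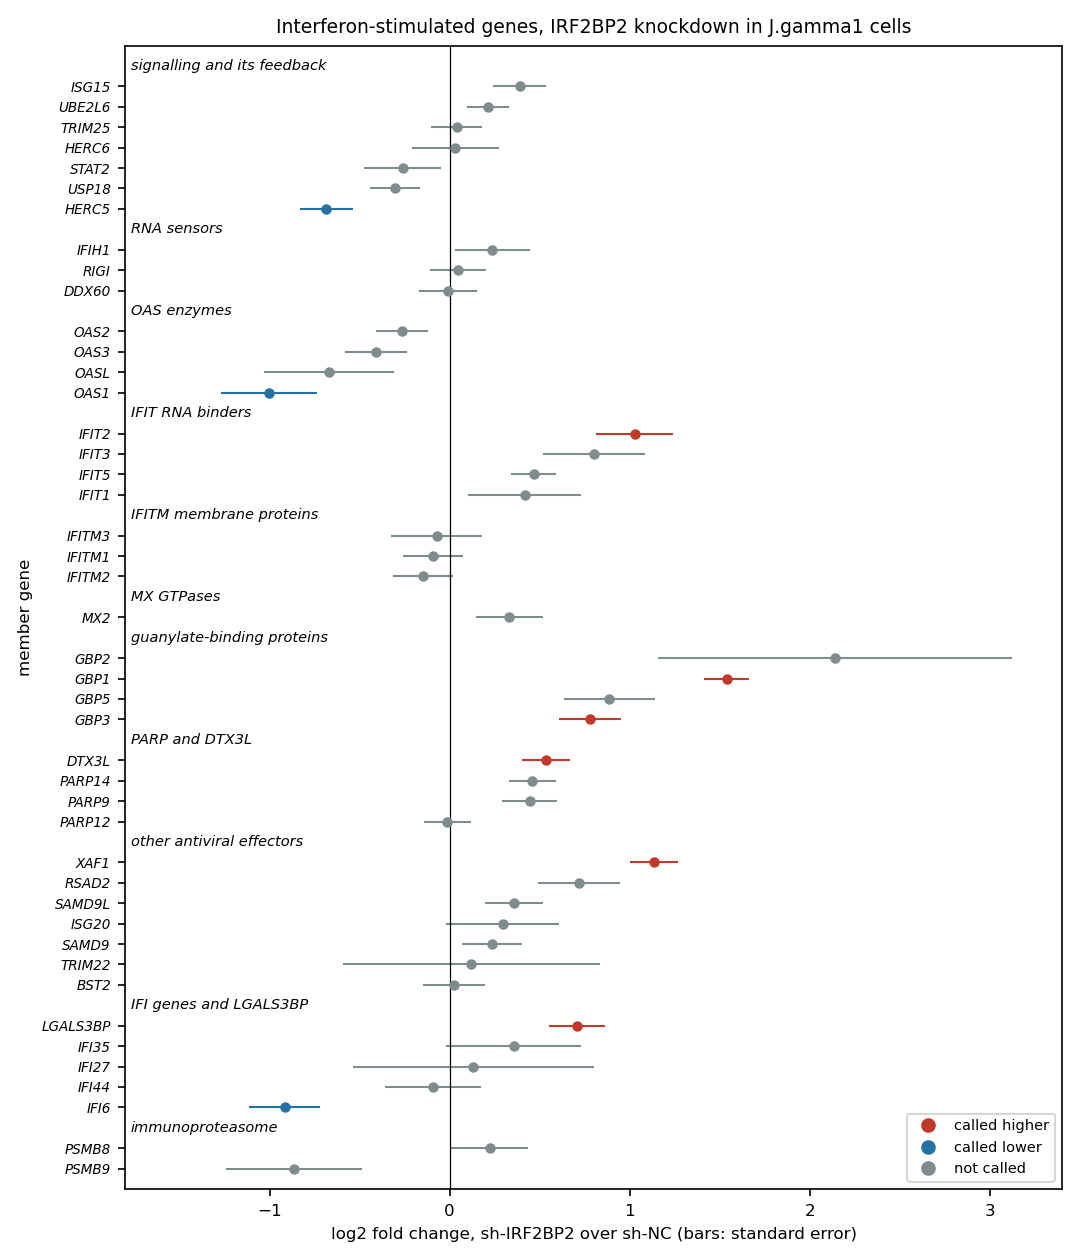
Log2 fold change of the 44 members tested in J.gamma1 cells (x axis, sh-IRF2BP2 over sh-NC, bars are standard errors), grouped by role, with called members in red (higher) and blue (lower). All 4 guanylate-binding protein genes and all 4 IFIT genes lie to the right of 0 and all 4 OAS genes to the left.

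The guanylate-binding proteins are large GTPases induced by type II interferon above all, and they attack the vacuoles and membranes that shelter intracellular pathogens. GBP1 (ENSG00000117228; hg38 chromosome 1, 89051882 to 89065360) measured 21.3 and 20.2 CPM with sh-NC and 58.6 and 61.9 CPM with sh-IRF2BP2. The pairs stood far apart, with means of 20.8 ± 0.734 and 60.3 ± 2.39 CPM (SD, n = 2 each). This was a rise of 1.54 on the log2 scale (standard error 0.127, adjusted p = 0.0011), or 2.90-fold, and the largest rise among the called members. GBP3 measured 10.6 and 11.8 CPM with sh-NC and 18.5 and 19.9 CPM with sh-IRF2BP2 (log2 fold change 0.78, standard error 0.172, adjusted p = 0.028). GBP5 measured 4.71 and 3.51 CPM against 7.28 and 7.90 CPM, without overlap, but was not called (0.89, adjusted p = 0.063). GBP2 had 0 and 34 counts with sh-NC and 84 and 63 counts with sh-IRF2BP2. Its fitted value of 2.14 was the largest of all members, yet its standard error was 0.981 and it was not called (adjusted p = 0.20). GBP1, GBP3, GBP2, GBP4 and GBP5 lie side by side within 266 kb of chromosome 1. They resemble each other in sequence, so that reads could have been divided between them in counting.

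The IFIT genes encode proteins that bind viral RNA lacking the marks of self RNA and keep it from being translated. IFIT2 (ENSG00000119922; hg38 chromosome 10, 89283694 to 89309271) rose from 5.21 and 4.61 CPM with sh-NC to 10.1 and 9.94 CPM with sh-IRF2BP2 (log2 fold change 1.03, standard error 0.216, adjusted p = 0.024). IFIT3 measured 3.48 and 3.61 CPM against 7.35 and 5.02 CPM (0.80, adjusted p = 0.11). IFIT5 measured 30.9 and 29.97 CPM against 42.1 and 42.1 CPM (0.47, adjusted p = 0.0503, not called). In all 4 genes both knockdown libraries lay above both sh-NC libraries, as they did in 29.6% of all genes tested. IFIT1 was the least separated, with 2.55 and 3.80 CPM against 4.67 and 3.83 CPM (0.42, adjusted p = 0.43). The 4 genes lie in 138 kb of chromosome 10, and IFIT1, IFIT2 and IFIT3 overlap LIPA on the opposite strand.

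The OAS enzymes make the messenger 2-5A when they meet double-stranded RNA, and 2-5A switches on the ribonuclease RNase L. OAS1 (ENSG00000089127; hg38 chromosome 12, 112905856 to 112933219) fell from 6.68 and 6.54 CPM with sh-NC to 3.78 and 2.82 CPM with sh-IRF2BP2. The log2 fold change was -1.003 (standard error 0.266), and the adjusted p of 0.0499 lay just inside the threshold. The values of the other 3 were lower as well, each without overlap between the groups, but none was called. Of all genes tested, 28.7% were lower without overlap. OAS3 measured 72.1 and 51.9 CPM against 49.3 and 43.999 CPM (-0.41, adjusted p = 0.17), and OASL measured 2.39 and 2.13 CPM against 1.58 and 1.26 CPM (-0.67, adjusted p = 0.28). OAS2 was at 23.3 and 23.5 CPM against 20.0 and 18.9 CPM. OAS1, OAS2 and OAS3 share a cluster of 106 kb on chromosome 12 and a long antisense gene (ENSG00000257452), and whether strand was used in counting is not given in the sources used here. The direction of these 3 families was the same in the 11 alternative fits. All 4 IFIT genes and all 4 guanylate-binding protein genes were positive and all 4 OAS genes negative in each. The families were picked after their values were seen, and none of their tested genes had overlapping groups in the main fit. A change of sign was therefore unlikely from the start, and the fits add little.

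The remaining calls fell on genes with other roles. XAF1 (ENSG00000132530; hg38 chromosome 17, 6755447 to 6775647), which encodes an antagonist of the apoptosis inhibitor XIAP, rose from 33.1 and 28.3 CPM to 69.1 and 65.5 CPM (log2 fold change 1.13, standard error 0.133, adjusted p = 0.0030). LGALS3BP, a secreted glycoprotein that binds galectin-3, rose from 24.2 and 31.1 CPM to 47.0 and 43.4 CPM (0.71, standard error 0.156, adjusted p = 0.029). DTX3L, a ubiquitin ligase that works with PARP9, rose from 75.8 and 61.3 CPM to 102 and 96.8 CPM (0.53, standard error 0.136, adjusted p = 0.044). Its neighbours on chromosome 3 had values close to its own, 0.44 for PARP9 (adjusted p = 0.11) and 0.46 for PARP14 (adjusted p = 0.064), both without overlap and not called. Since DTX3L and PARP9 overlap on opposite strands, reads of the 2 genes could have been exchanged.

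Among the genes that fell, IFI6 encodes a small membrane protein that limits flavivirus replication at the endoplasmic reticulum. It measured 17.9 and 23.1 CPM with sh-NC and 10.1 and 11.7 CPM with sh-IRF2BP2 (log2 fold change -0.92, standard error 0.196, adjusted p = 0.025). HERC5 is the main ligase that attaches ISG15 to proteins, and it fell from 74.6 and 92.1 CPM to 48.0 and 55.7 CPM (-0.68, standard error 0.146, adjusted p = 0.025). HERC6, its neighbour on chromosome 4, had overlapping groups, with 7.92 and 6.64 CPM against 6.42 and 8.45 CPM. PSMB9, a catalytic subunit of the immunoproteasome, measured 5.02 and 2.77 CPM against 1.85 and 2.41 CPM and was not called (-0.86, adjusted p = 0.18).

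**Figure D2:**
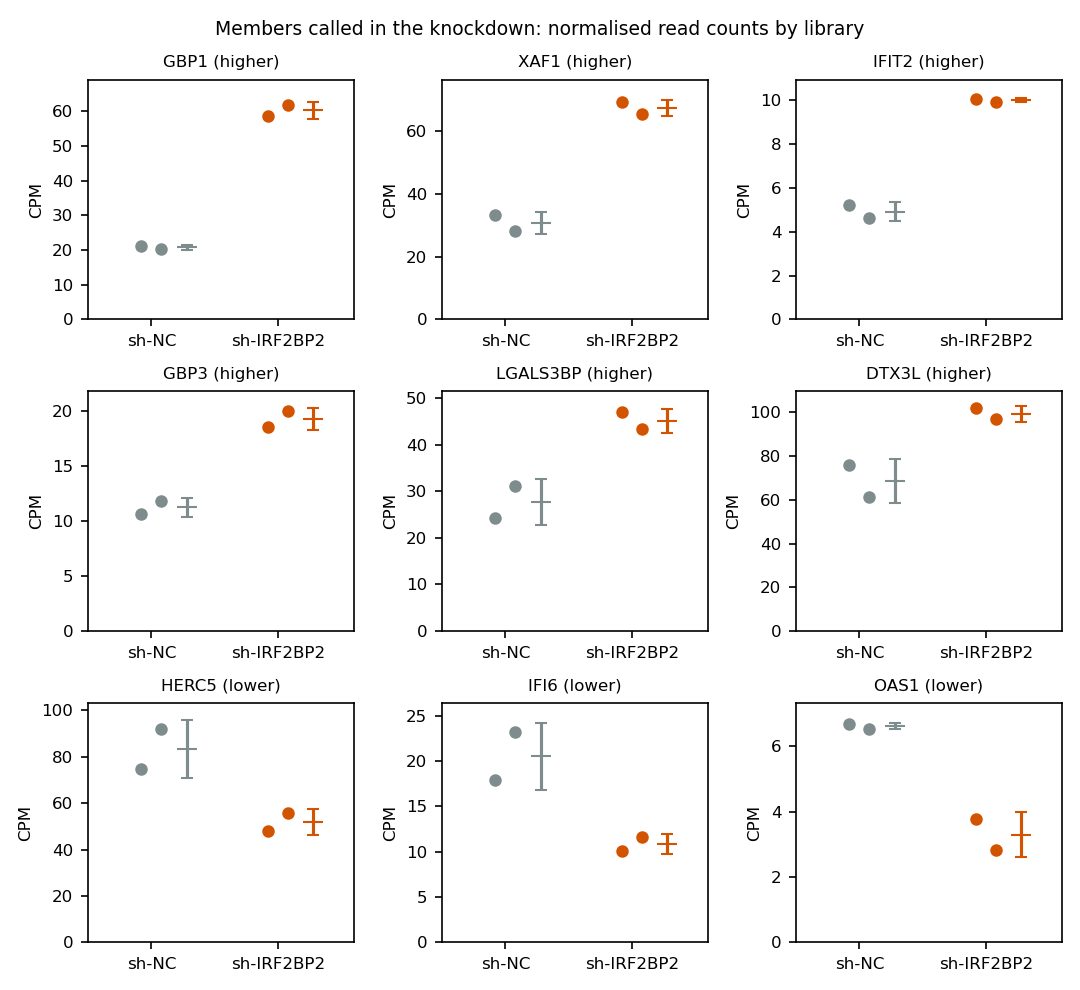
CPM of the 9 called members in each J.gamma1 library (points), with the group mean and SD (n = 2) beside them, for sh-NC (grey) and sh-IRF2BP2 (orange). In every panel both knockdown libraries lie on one side of both sh-NC libraries, for example 58.6 and 61.9 against 21.3 and 20.2 CPM for GBP1.

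The genes of the ISG15 conjugation system had values in both directions. ISG15, the ubiquitin-like modifier itself, measured 27.3 and 33.2 CPM with sh-NC and 41.1 and 38.2 CPM with sh-IRF2BP2 (log2 fold change 0.39, standard error 0.146, adjusted p = 0.13). USP18, which removes ISG15 from proteins and shuts off the receptor, measured 27.7 and 27.7 CPM against 21.5 and 23.4 CPM (-0.30, standard error 0.139, adjusted p = 0.20). UBE2L6, the conjugating enzyme, was at 71.3 and 79.1 CPM against 86.1 and 88.4 CPM. None of these 3 was called, although the groups did not overlap in any of them. Of all genes tested, 29.6% were higher and 28.7% lower without overlap. STAT2, the member that transmits the signal of type I interferon, had overlapping groups, with 26.4 and 34.6 CPM against 20.7 and 30.3 CPM (-0.26, standard error 0.213, adjusted p = 0.47). RSAD2, which encodes viperin, an enzyme that makes a chain-ending nucleotide, was at 5.72 and 5.06 CPM against 8.11 and 9.63 CPM and missed the threshold (0.72, adjusted p = 0.083).

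The 24 uncalled members with a log2 fold change under 0.4 in size lay between -0.30 and 0.39, ISG15, USP18, UBE2L6, STAT2 and OAS2 among them, and none had an adjusted p under 0.13. The 3 IFITM genes, whose proteins keep virions from fusing with endosomes, had overlapping groups, for example 28.2 and 37.7 CPM against 31.4 and 30.5 CPM for IFITM1. Among the 3 RNA sensors, RIGI and DDX60 had overlapping groups, whereas IFIH1 (MDA5) was at 7.76 and 9.12 CPM against 10.5 and 9.36 CPM. At the level per kilobase of exon in sh-NC cells, UBE2L6 and ISG15 led the members with 36.5 and 34.9 CPM per kb, and their ranges over the 2 libraries overlapped (34.6 to 38.4 and 31.5 to 38.3). IFI6 ranked 5 in that order at 21.9 CPM per kb and fell to 11.6 in knockdown cells, whereas GBP1 ranked 19 at 3.402 and rose to 9.87. OAS1 was at 0.508 CPM per kb, far down the order. Here and for the mouse, kilobases are the merged exons of all annotated transcripts of a gene, for example 13.0 kb for OAS1 and 0.867 kb for ISG15. The order thus depends on this annotated length as well as on the counts.

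With 2 libraries in each group, most of these calls depended on the number of libraries and on the filter. GBP1 and XAF1 kept their calls in all 11 alternatives, with log2 fold changes from 1.48 to 1.57 and from 1.02 to 1.25. Without sh-IRF2BP2 replicate 1 they were the 2 members called higher, and 0 were called lower. The adjusted p was then 0.10 for IFIT2, 0.093 for GBP3, 0.12 for LGALS3BP, 0.22 for DTX3L, 0.086 for IFI6, 0.12 for HERC5 and 0.071 for OAS1. Without sh-IRF2BP2 replicate 2, the calls of IFIT2 (0.071), GBP3 (0.13), DTX3L (0.11) and OAS1 (0.22) were lost. OAS1 was not called without sh-NC replicate 1 (0.058) or 2 (0.074) either, nor DTX3L without sh-NC replicate 2 (0.079). In contrast, PARP9 (0.014), PARP14 (0.0076) and GBP5 (0.025) were called without sh-NC replicate 1, and ISG15 (0.044) and OAS3 (0.0061) without sh-NC replicate 2, as was GBP2, whose counts with sh-NC all lie in that library. When all genes with at least 1 count were kept, 2 members were called higher and 0 lower.

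Promoters are described here because the members are known for 2 sequence elements. The 300 bases from 250 before to 50 after the annotated start were searched on both strands for the core of the ISRE, GAAANNGAAA, and of the GAS, TTCNNNGAA, which reads the same on both strands. The ISRE core was found in 30 of the 47 human members (63.8%) and in 3.28% of 20044 promoters of protein-coding genes. The GAS core was found in 10 of the 47 (21.3%) and in 6.501% of all. Among tested members, 28 had the ISRE core, of which 5 were called higher and 2 lower (median log2 fold change 0.24). Another 16 had none in this window, of which 1 was called higher and 1 lower (median 0.083). So the element was present in members of both directions, and 1 called member in each direction had no match to its core. Sites of the called members are given in 30 bases of the gene's strand, 5′ to 3′, with the ISRE core in capitals, in hg38 and starts taken from GENCODE v44. HERC5 and IFI6 each held 3 matches, of which 1 and 2 are printed.
GBP1 (chr1:89065316-89065345, minus strand): aacgaagtacTTTCAGTTTCatattactct
GBP3 (chr1:89022845-89022874, minus strand): aaagaagtacTTTCAGTTTCattaggctct
IFIT2 (chr10:89301928-89301957, plus strand): gtcctgccaaTTTCACTTTCtagtttcact
IFIT2 (chr10:89301941-89301970, plus strand): cactttctagTTTCACTTTCccttttgtaa
DTX3L (chr3:122564322-122564351, plus strand): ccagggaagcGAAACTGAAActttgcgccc
LGALS3BP (chr17:78979962-78979991, minus strand): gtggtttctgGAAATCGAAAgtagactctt
IFI6 (chr1:27672329-27672358, minus strand): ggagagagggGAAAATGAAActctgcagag
IFI6 (chr1:27672288-27672317, minus strand): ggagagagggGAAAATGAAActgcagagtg
HERC5 (chr4:88457035-88457064, plus strand): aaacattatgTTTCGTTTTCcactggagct
GBP1 and GBP3 held the same 10-letter core, IFIT2 held a tandem pair, and IFI6, which fell, held a repeated element. The 10 letters of GBP1 and GBP3 were not particular to them and were also found in uncalled members such as IFI44, IFIT5 and OAS2. The bases of the DTX3L match, read on the other strand, are also the match in the promoter of PARP9. The GAS core was found in 1 of the 6 members called higher, GBP3, where it is shown in capitals, and in 1 of the 3 called lower.
GBP3 (chr1:89022862-89022891, minus strand): actgagtcacTTCCTTGAAagaagtacttt
Each match is a description of the letters alone; binding was not measured in these libraries.

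The pathway around the members was read from a list of 78 genes, of which 60 were tested in J.gamma1 cells; 12 were called higher (20%, against 5.46% of all genes tested) and 6 lower (10%, against 5.01%). The list was chosen with earlier results known and includes IRF2BP2 itself. IRF9, the partner of STAT2, rose from 2.05 and 2.74 CPM to 10.2 and 7.40 CPM (log2 fold change 1.87, standard error 0.289, adjusted p = 0.0078). STAT2, given above with the members, was not called in any of the 11 alternatives. Of the receptor chains for type I interferon, IFNAR2 rose from 83.8 and 91.6 CPM to 143 and 147 CPM (0.73, adjusted p = 0.0094). IFNAR1 was at 140 and 135 CPM against 146 and 139 CPM (0.056, adjusted p = 0.80).

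Of the 10 ligand genes on the list, the 9 of type I and type III had 0 counts in all 4 J.gamma1 libraries. IFNG, the type II ligand, had 0 counts in both sh-NC libraries and 13 and 12 counts in the sh-IRF2BP2 libraries. That is at least 4.02-fold higher with 3 counts per library as the floor. IFNG passed the filter on low counts through the knockdown libraries alone, so its place among the genes called higher follows from where it was detected and is given as a description.

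Other called genes of the list were the kinase JAK1 (log2 fold change 0.61) and the factor STAT3 (0.62), both of which transmit cytokine signals. STING1, the adaptor of DNA sensing, rose from 30.6 and 35.8 CPM to 70.2 and 72.3 CPM (1.10, adjusted p = 0.0030), and the kinase IKBKE rose from 21.0 and 20.4 CPM to 37.7 and 37.4 CPM (0.86, adjusted p = 0.0074). The peptide transporter TAP2 (1.17), RNF213 (1.04) and APOL6 (0.66) were called higher as well. IRF1, an activator of interferon-stimulated genes, was called at 0.50 (adjusted p = 0.049), but 9 of 11 alternatives lost that call. Its antagonist IRF2 (0.23, adjusted p = 0.29) and IRF7 (0.49, adjusted p = 0.42) were not called.

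The genes of the list called lower included IFI16, a nuclear DNA sensor, which fell from 310 and 333 CPM to 147 and 136 CPM (-1.19, adjusted p = 0.0020). IRF8, a factor of the same family as IRF1, fell from 3.90 and 3.74 CPM to 1.34 and 1.59 CPM (-1.38, adjusted p = 0.033). The others were EPSTI1 (-1.20), CMPK2 (-0.66), PTPN2 (-0.61), a phosphatase that acts on JAK1, and IRF2BP2 itself. Without sh-IRF2BP2 replicate 1 the calls of JAK1 (adjusted p = 0.11), STAT3 (0.091), TAP2 (0.087), APOL6 (0.061), IRF8 (0.13), EPSTI1 (0.13), CMPK2 (0.088) and PTPN2 (0.068) were lost. Without sh-IRF2BP2 replicate 2 those of JAK1 (0.086), STAT3 (0.103), APOL6 (0.078), IRF8 (0.065), CMPK2 (0.15) and PTPN2 (0.12) were lost, and without sh-NC replicate 2 that of EPSTI1 (0.13). DESeq2 did not call RNF213 (0.081). IRF9, IFNAR2, STING1, IKBKE and IFI16 were called in each of the 11 alternatives. CMPK2 and RSAD2 overlap on opposite strands and are often induced together, and here CMPK2 was called lower while RSAD2 had a positive value. Reads of these genes could have been exchanged in counting. Sums of genes listed as markers of other lineages also moved between these groups, within the same cell line. The natural killer sum was 50.3 and 54.4 CPM with sh-NC and 151 and 159 CPM with sh-IRF2BP2, with NCR1 and KLRK1 at 0; 2 of its 5 genes were called higher and 1 lower. EOMES made up most of the sum with sh-IRF2BP2, at 11.8 and 11.3 CPM against 112 and 119 CPM. The B cell sum was 65.9 and 82.5 CPM against 32.6 and 34.5 CPM, with MS4A1 at 0 and 1 of its 8 genes called lower. The plasma cell sum was 133 and 149 CPM against 84.6 and 82.6 CPM. The part of these genes in the member results was not tested.

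In splenic T cells of the knockout mice, 3 members were called higher, Gbp3, Rsad2 and Ube2l6, and 0 were called lower by edgeR. Here a call required a log2 ratio of 1 or more in size beside the same limit on the adjusted p. The 3 are 8.11% of the 37 members tested, against 2.47% of all genes tested, and in the other direction 0.111% of all genes tested were called. At an unadjusted p under 0.05, 4 members were higher and 3 lower, against 10.2% and 6.01% of all genes tested, and DESeq2 called 1 lower. The groups did not overlap for 5 members that were higher (13.5%, against 18.2% of all genes tested) and 9 that were lower (24.3%, against 17.8%). The median log2 fold change was -0.056 over the members and -0.018 over all genes tested. The 28 members under 0.4 in size that were not called lay between -0.40 and 0.40, and the lowest adjusted p among them was 0.35.

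**Figure D3:**
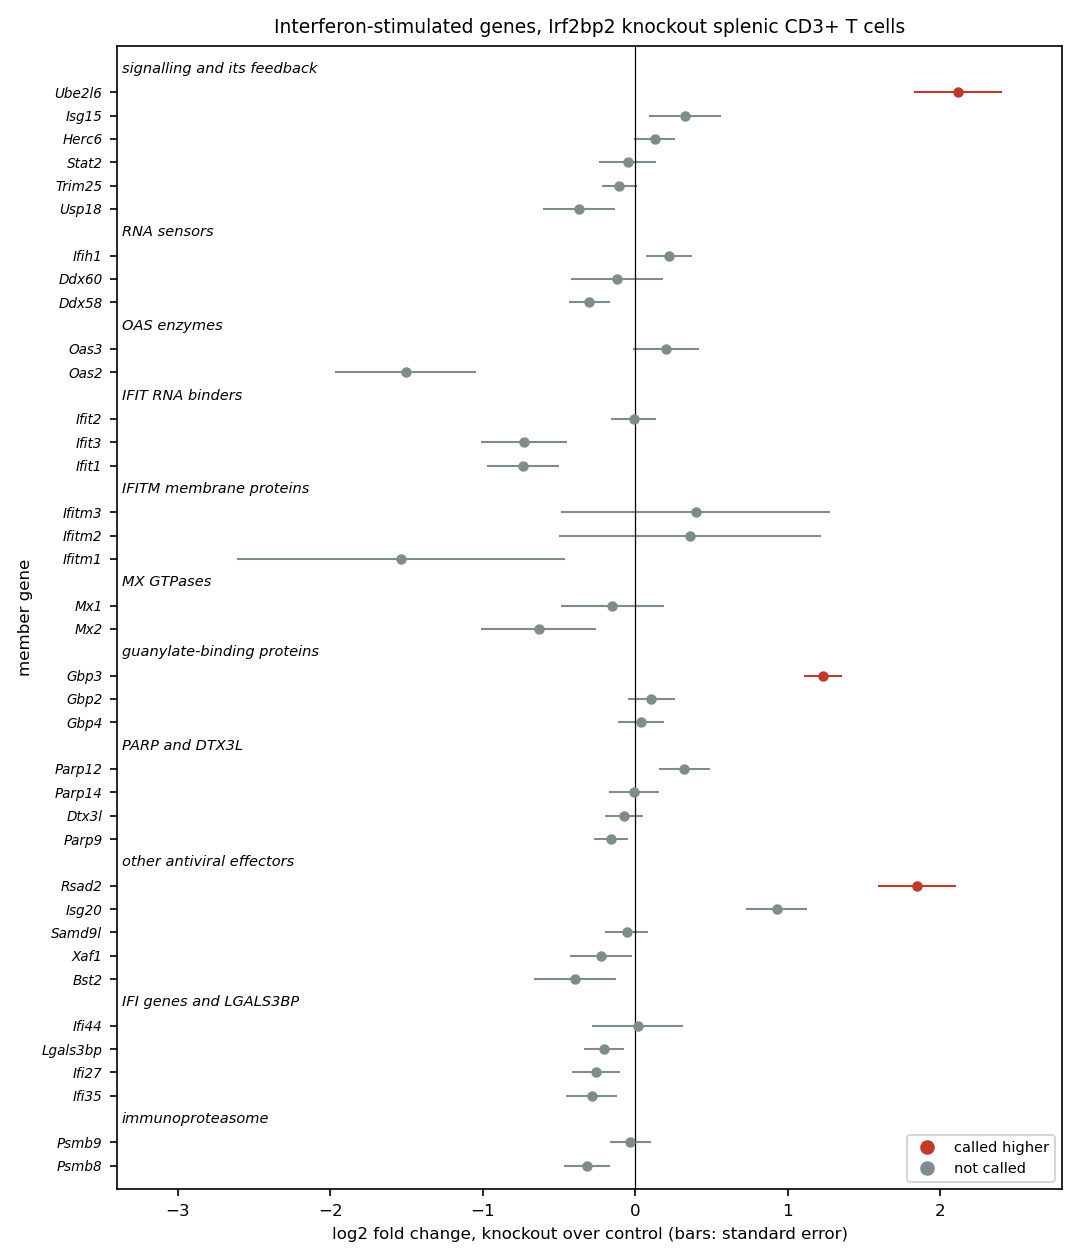
Log2 fold change of the 37 members tested in mouse splenic T cells (x axis, knockout over control, bars are standard errors), grouped by role, with called members in red. Ube2l6, Rsad2 and Gbp3 lie at 2.12, 1.85 and 1.23, and the bars of the Ifitm genes are wide, with a standard error of 1.08 for Ifitm1.

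Gbp3 (ENSMUSG00000028268; GRCm38 chromosome 3, 142560026 to 142573209) measured 27.6, 25.3 and 29.2 CPM in the controls and 63.3 and 65.1 CPM in the knockout (1.23 on the log2 scale, standard error 0.128, adjusted p = 0.010). Rsad2 (ENSMUSG00000020641; chromosome 12, 26442746 to 26456452) measured 14.9, 15.7 and 8.63 CPM in the controls and 48.1 and 46.7 CPM in the knockout (1.85, standard error 0.258, adjusted p = 0.019). Ube2l6 (ENSMUSG00000027078; chromosome 2, 84798828 to 84810335) measured 12.8, 11.8 and 6.51 CPM in the controls and 41.4 and 49.4 CPM in the knockout (2.12, standard error 0.288, adjusted p = 0.018). In all 3 genes both knockout libraries lay well above the highest control, and in Rsad2 and Ube2l6 the lowest control was replicate 3. Isg20, which encodes an exonuclease that degrades RNA, followed the same order with 16.1, 21.1 and 15.8 CPM against 29.8 and 37.5 CPM but was not called (0.93, standard error 0.199, adjusted p = 0.069).

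Erythroid genes were higher in the same libraries. The summed level of the 11 erythroid markers with a row was 2261, 1271 and 595 CPM in the controls and 4463 and 6284 CPM in the knockout, all 11 had positive values (median log2 fold change 2.48), and 6 were called higher. Among the controls, replicate 3 had the lowest Rsad2, Ube2l6 and erythroid sum but the highest Gbp3 (29.2 CPM). Its sums for T cells, B cells, macrophages, neutrophils, natural killer cells and both kinds of dendritic cell were also the lowest of the controls. Its plasma cell sum was the only one that was not. Between the groups, the T cell markers went the other way from the erythroid markers. They were at 7200, 8507 and 6870 CPM against 5395 and 5662 CPM, with 0 of 15 called by edgeR and a median of -0.43. Plasma cell markers were at 1151, 411 and 534 CPM against 1497 and 1135 CPM. B cell markers were at 157, 268 and 36.9 CPM against 109 and 37.5 CPM, with overlapping sums. All 8 had negative values (median -1.15), and 0 were called. Conventional dendritic markers were at 114, 194 and 31.8 CPM against 215 and 122 CPM, with overlapping sums, 6 of 7 genes positive, 1 called higher and a median of 1.30. The part of these other cells in the member results was not tested, and in bulk RNA, fewer cells of a type and less RNA per cell cannot be told apart. Each of the 3 calls was lost without control replicate 1, without knockout replicate 1 and without knockout replicate 2. The adjusted p reached 0.12 for Gbp3, 0.14 for Rsad2 and 0.16 for Ube2l6. The sizes moved little, from 1.19 to 1.27, from 1.63 to 2.003 and from 1.88 to 2.29. Without control replicate 2, 5 members were called higher, and without the shallow control replicate 3, 3 were.

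**Figure D4:**
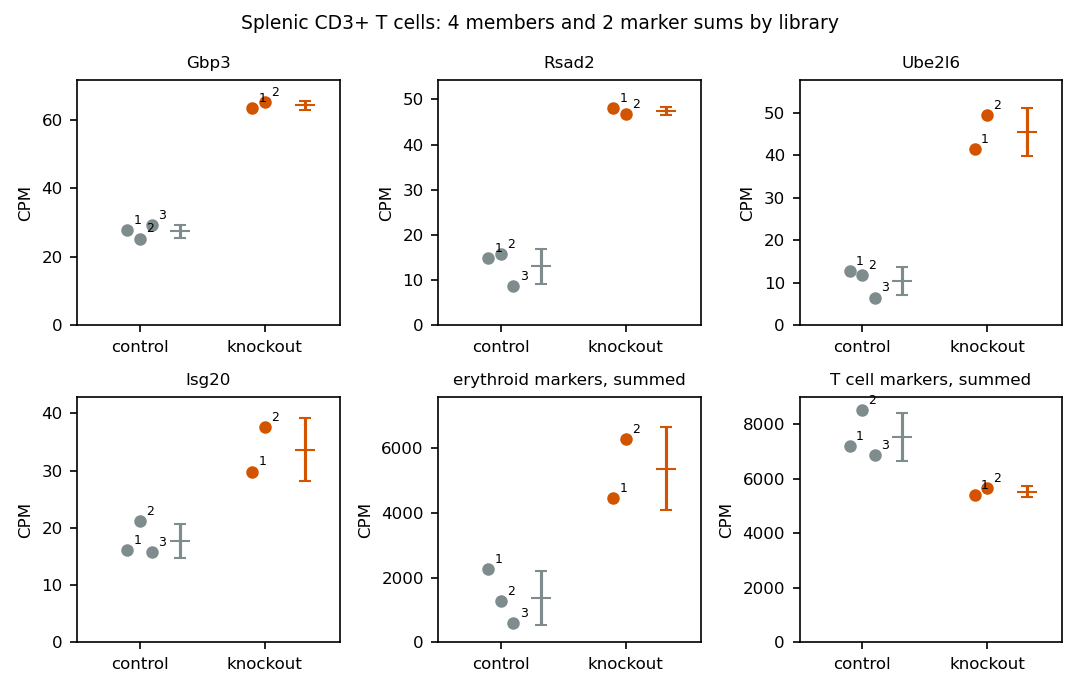
CPM of Gbp3, Rsad2, Ube2l6 and Isg20 and the summed CPM of erythroid and T cell markers in each mouse library (points, numbered by replicate), with the group mean and SD (n = 3 controls, n = 2 knockout). The 2 knockout libraries lie above the 3 controls in all panels but that of the T cell markers, where they lie below.

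Among the mouse members with lower values, Oas2 measured 33.7, 65.9 and 56.5 CPM in the controls and 9.9995 and 26.6 CPM in the knockout (log2 fold change -1.51, standard error 0.464, adjusted p = 0.18). The groups did not overlap, although the libraries within each lay far apart. DESeq2 called Oas2 lower (adjusted p = 0.010). Ifit1 was at 31.3, 38.3 and 32.5 CPM against 15.6 and 25.2 CPM (-0.74, adjusted p = 0.20), and Ifit3 at 35.8, 41.2 and 27.5 CPM against 15.4 and 26.7 CPM (-0.73, adjusted p = 0.27). In both, knockout replicate 1 was well below replicate 2. Mx2, which the annotation lists as a polymorphic pseudogene, was at 3.59, 5.95 and 4.25 CPM against 2.27 and 3.66 CPM (-0.63, adjusted p = 0.49). The groups overlapped for Mx2, and none of these 4 was called by edgeR.

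The Ifitm genes varied most between control libraries. Ifitm1 measured 3.89, 18.8 and 1.13 CPM in the controls and 3.86 and 1.63 CPM in the knockout (log2 fold change -1.54, standard error 1.08, adjusted p = 0.56). Ifitm3 measured 4.86, 24.8 and 2.19 CPM against 16.5 and 11.7 CPM (0.40, standard error 0.883, adjusted p = 0.88). Control replicate 2 was highest in both genes. The same library had the highest neutrophil sum, 213 CPM against 38.7 and 4.38 CPM in the other controls and 41.9 and 23.7 CPM in the knockout, and the highest macrophage sum, 537 CPM against 336 and 89.9 CPM in the other controls. Its T cell, B cell, plasmacytoid dendritic and conventional dendritic sums were the highest of the controls as well. Its erythroid, plasma cell and natural killer sums were not. The part of these cells in the Ifitm values was not tested. Without control replicate 2 the Ifitm1 value changed sign to 0.11, and without control replicate 3 the Ifitm3 value changed sign to -0.081.

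Of the signalling members other than Ube2l6, the groups overlapped for Stat2, Isg15, Usp18 and Herc6, and Trim25 was not called. Stat2 measured 62.5, 67.1 and 88.1 CPM in the controls and 62.5 and 77.5 CPM in the knockout (-0.050 on the log2 scale, adjusted p = 0.93). Isg15 measured 13.6, 18.5 and 12.8 CPM against 16.2 and 21.4 CPM (0.32, adjusted p = 0.58). Usp18 measured 41.0, 45.2 and 42.7 CPM against 24.4 and 42.2 CPM (-0.37, adjusted p = 0.52). None of these 3 was called. At the level per kilobase of exon in the controls, Psmb8 (97.3 CPM per kb) led the mouse members, with 85.6 to 110 over the 3 libraries, and Bst2 (74.3) had a range of 60.1 to 100 that overlapped with it. Rsad2 and Ube2l6 were low in that order, at 3.02 and 5.21 CPM per kb in the controls, and reached 10.9 and 22.8 in the knockout.

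Of the 78 genes around the pathway, 75 had a row in the mouse table, 64 were tested, and the chemokine gene Ccl5 was the 1 called higher. It measured 96.1, 80.4 and 81.1 CPM in the controls and 175 and 268 CPM in the knockout (log2 fold change 1.37, standard error 0.201, adjusted p = 0.022), and the call was lost without control replicate 1 (0.088) and without knockout replicate 2 (0.16). The 1 called lower was Irf2bp2. Irf9 (-0.30, adjusted p = 0.42), Irf1 (-0.20, adjusted p = 0.52), Irf2 (-0.024, adjusted p = 0.96) and Irf7 (-0.48, adjusted p = 0.23) were not called, nor were Ifnar1 and Ifnar2. The 7 type I and type III ligand genes with a row had 0 counts in all 5 libraries. Ifng, chosen after its values were seen, was at 2.75, 2.13 and 4.76 CPM in the controls and 8.20 and 13.1 CPM in the knockout and was not called (1.75, adjusted p = 0.086). Ccl5, Ifng and the natural killer marker sum were all highest in knockout replicate 2. That sum was 184, 161 and 147 CPM in the controls and 173 and 312 CPM in the knockout, with 4 of 7 genes positive and 0 called. Its part in these values was not tested. Of 28 mouse relatives of the members, such as the Oas1 copies and the immunity-related GTPases, 26 were tested. By edgeR 0 were called in either direction, and DESeq2 also called 0. At an unadjusted p under 0.05, 2 were higher and 6 lower, against the same 10.2% and 6.01% of all genes tested, with log2 fold changes of all 26 between -0.92 and 0.61.

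The mouse promoters came from RefSeq (GRCm38.p6), where 35 promoters of 31 listed symbols were found. The ISRE core was in 15 of these promoters (42.9%), against 3.44% of 32841, and the GAS core in 7 (20.0%), against 8.30%. Of the called genes, Gbp3 and Rsad2 held the ISRE core and Ube2l6 held neither core in this window. Gbp3 held 2 overlapping matches, of which the first is in capitals. Its site and the 250 bases before the Rsad2 start are given 5′ to 3′ on the gene's strand.
Gbp3 (chr3:142559989-142560018, plus strand): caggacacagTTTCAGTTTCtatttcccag
Rsad2 (chr12:26456453-26456702, minus strand): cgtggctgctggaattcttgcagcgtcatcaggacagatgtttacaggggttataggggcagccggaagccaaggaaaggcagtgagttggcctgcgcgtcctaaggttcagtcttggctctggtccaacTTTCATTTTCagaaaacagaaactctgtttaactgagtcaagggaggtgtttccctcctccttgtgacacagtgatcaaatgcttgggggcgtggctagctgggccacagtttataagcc
The capitals in the Rsad2 sequence mark its ISRE core, and the 10 letters in capitals in mouse Gbp3 are those found in human GBP1 and GBP3. The same 10 letters were also found in mouse Ifit1, Ifit3 and Stat2, none of which was called.

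Set side by side, 35 members were tested in both tables, which share no libraries. They were matched by symbol, with RIGI set against Ddx58, and orthology was not checked. The values had the same sign in 14 of them, 8 positive and 6 negative, while 16 were positive in J.gamma1 and negative in mouse T cells and 5 the reverse. GBP3 was the 1 symbol called higher in both (0.78 and 1.23). RSAD2 (0.72 and 1.85) and ISG20 (0.30 and 0.93) had positive values in both, whereas IFIT3 (0.80 and -0.73), IFIT1 (0.42 and -0.74) and XAF1 (1.13 and -0.22) differed in sign. The tables come from different species, cells and depletions, and the difference between them was not tested.

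**Figure D5:**
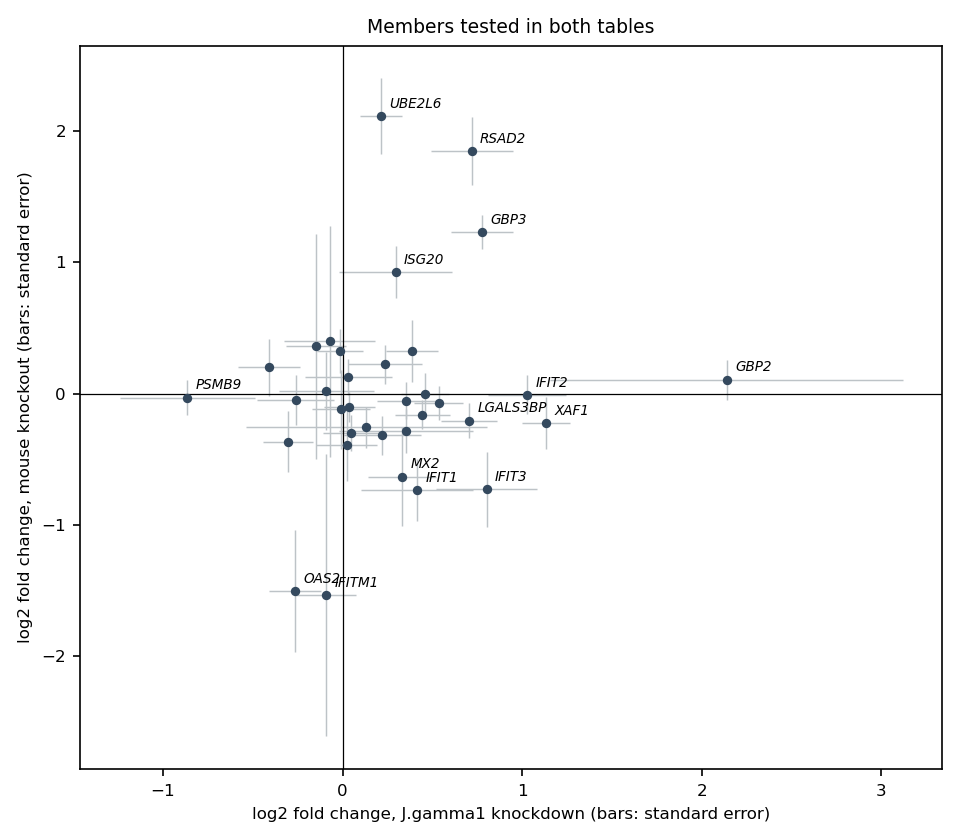
Log2 fold change of the 35 members tested in both tables, J.gamma1 knockdown on the x axis and mouse knockout on the y axis, with standard errors as bars. GBP3, RSAD2, ISG20 and UBE2L6 lie in the upper right, and IFIT3, IFIT1 and MX2 in the lower right.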

How the data were processed

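RNA-seq counts were read from the 2 tables the authors deposited, 4 human and 5 mouse libraries, holding raw counts for each Ensembl identifier. Per the labels and methods, reads were aligned with HISAT2 2.2.0 to hg38 or mm10 and quantified with StringTie; the conversion to counts, the annotation and the use of strand are not given in the sources used here. Rows with an identifier in GENCODE v44 or vM21 were kept, and symbols were taken from there. edgeR 4.0.16 in R 4.3.3 was used for TMM scaling, filterByExpr and the quasi-likelihood test, adjusted over all genes tested by the Benjamini-Hochberg method; standard errors are the log2 fold change over the square root of F. Replicates are separate libraries by their labels, and whether they came from separate cultures or pooled animals is not given, so p-values measure the spread between these libraries, with 2 (human) and 3 (mouse) residual degrees of freedom. Replicates of a group differed by more than sampling noise. Members, lists, motifs and tests were chosen with earlier results of these data known. Folds are named for called members, the 5 largest rises and falls, STAT2, ISG15 and USP18, members of at least 0.4 in size, and called genes or core factors of the pathway list; members shown by levels or otherwise named were chosen after their values were seen. Level limits cover counting error only. As alternatives, DESeq2 1.42.0, upper-quartile and RLE scaling, other filters, halved counts, the replicate block and leaving out each library were tried. Motifs were searched in Python 3.11.15. The fits were tested on simulated data. Some items of the lists are not reported here.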

Additional observations from a re-analysis of the deposited data

How the results depend on the processing

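Of the 23 J.gamma1 members with a fold, none changed sign in the 11 alternatives, and 2 of 9 called members kept their call in all. Most of the 23 were chosen because they were called or at least 0.4 in size, which favours a stable sign. Tested members without a fold did change sign, and from 0 to 3 of the IFITM genes were positive over the fits. Members called higher ranged from 2 to 9 and those called lower from 0 to 3 when 1 library was left out. With all genes of at least 1 count kept they were 2 and 0, and the pathway list gave 5 higher and 3 lower. That list gave 6 to 14 higher and 2 to 7 lower when 1 library was left out. The members' median of 0.22 was 0.16 with upper-quartile scaling, 0.19 without the filter, 0.20 with halved counts, and 0.12 to 0.24 when 1 library was left out. In the mouse table, members called higher ranged from 0 to 5 when 1 library was left out, the pathway list from 0 to 2 higher and the relatives from 0 to 1 lower. DESeq2 called 1 member lower and 2 pathway genes higher. Whether the replicate numbers shared by the groups pair the samples is not given in the labels. The correlation of deviations was 0.22 in J.gamma1 and 0.14 and -0.15 in the mouse. In J.gamma1, with 2 libraries per group, both replicate numbers give the same value, so this check cannot decide whether samples were paired. With the replicate block, 9 and 3 J.gamma1 members were called, 3 mouse members were called higher and 1 lower, 1 relative was called lower, and the mouse members' median changed sign to 0.013, Stat2 to 0.10 and Irf2 to 0.039. When 1 library was left out, values that changed sign ranged from -0.0082 to 0.091 for IFNAR1, -0.24 to 0.11 for Stat2, -2.31 to 0.11 for Ifitm1, -0.081 to 1.98 for Ifitm3 and -0.13 to 0.070 for Irf2. The cause was not tested. Alternatives for the pathway list and the relatives were chosen after seeing the data. A fit that leaves out 1 of 2 libraries assumes that the lone one varies like the other group. A count of 0 allows up to 0.116 CPM in J.gamma1 and 0.188 CPM in the mouse libraries.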
